A study of Mus musculus with 3 samples.

Results

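Mesothelial cells were examined in single-cell RNA libraries of irradiated mouse lung. They were chosen by their own measured values, as the cells with 3 or more of the 8 genes Msln, Upk3b, Upk1b, Wt1, Lrrn4, Nkain4, Gpm6a and Muc16 above 0 and with none of Ptprc (leukocytes), Pecam1 (endothelium), Slc34a2 (alveolar type 2 cells) and Foxj1 (ciliated cells) above 0. This rule selected 108 of 19622 cells, made up of 25 of 6372 CONV cells, 45 of 6983 CONV AsiDNA cells and 38 of 6267 FLASH cells. Each library came from the dissociated lung of 1 female wild-type C57BL6/J mouse, collected 5 months after a single dose of 13 Gy to the thorax, which the study's general methods place in young adult animals. The CONV mouse was irradiated at a conventional dose rate and the FLASH mouse at an ultra-high dose rate. The CONV AsiDNA mouse was irradiated at the conventional rate and had received AsiDNA, a short double-stranded DNA that mimics a double-strand break and activates DNA-PK, as 2 daily injections of 100 mg/kg and a further one of 200 mg/kg on the day of irradiation. Unirradiated lungs were not analysed here. Because each condition was 1 mouse, differences had no replicate check and were not tested, and each of them compares single libraries.

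Mesothelial cells form the single cell layer that covers the lung as the visceral pleura. They combine keratin filaments and tight junctions with mesenchymal genes, carry membrane mucins and make hyaluronan, which lubricates the pleural surfaces. They are also a source of retinoic acid, complement proteins and growth factor binding proteins, and in pleural injury they are known to lose epithelial features and take up matrix genes.

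The deposited values were whole numbers on a log scale. Their totals per cell lay in a narrow range, the step that made them was not named in the sources read, and they are called adjusted counts here. A level is given as adjusted CPM, the sum of a gene over the mesothelial cells of a library scaled to a total of 1000000 adjusted counts, or as the share of cells with a value above 0. Where 3 values follow each other with no library named, they belong to CONV, CONV AsiDNA and FLASH in this order. Shares carry an exact Clopper-Pearson 95% interval, which covers the sampling of cells within 1 mouse and nothing else. Log2 ratios between libraries were formed after adding 10 adjusted CPM to both levels.

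Most selected cells carried most of the markers. All 8 markers were above 0 in 59 of the 108 cells and 7 or 8 of them in 88. The number with 7 or 8 markers was 15 of 25 cells in CONV (60%), 37 of 45 in CONV AsiDNA (82.2%) and 36 of 38 in FLASH (94.7%). At the edge of the rule, 5 cells were inside with exactly 3 markers and 14 cells were outside with 2, of which CONV held 8, CONV AsiDNA 4 and FLASH 2. The 3 edge cells inside in CONV summed to 9 to 17 adjusted counts over the markers and the 8 outside to 2 to 11. Another 2 cells, both in CONV AsiDNA, had 3 or more markers and an excluded gene. Over all mesothelial cells the sum of the 8 markers per cell had medians of 35, 47 and 74 adjusted counts, with ranges of 9 to 119, 4 to 142 and 17 to 159.

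The label was then compared with genes across the whole table. The 10 genes farthest above all other cells, by the smallest of the 3 within-library log2 ratios, were Upk3b (6.91), Msln (6.75), Gpc3 (6.70), C3 (6.62), Igfbp6 (6.61), Gas1 (6.35), Lrrn4 (6.30), Gpm6a (6.24), Pkhd1l1 (6.01) and Sfrp2 (5.95). Of these, 4 are genes of the rule and carry no weight. Of a list of 30 further mesothelial genes, 25 were above 0 in the mesothelial cells of all 3 libraries with a summed value of at least 20, among them Bnc1, Gata6, Krt19, Aldh1a2 and Rspo1. The lists of alveolar type 2, ciliated and immune genes had none that met this minimum. The endothelial list had 1 of 14 that met it and summed to 332, 702 and 1087 adjusted CPM. The fibroblast list had 7 of 16 that met it and the alveolar type 1 list 4, and 6 club cell genes met the sum in CONV alone, all through 1 cell described below. The cells are called mesothelial by the rule, with genes of these other lists among them.

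The markers themselves were not even between libraries, although these values chose the cells and are given as a description. Muc16, the large membrane mucin known as CA125, was above 0 in 8 of 25 CONV cells (32.0%, 14.9 to 53.5), against 41 of 45 in CONV AsiDNA (91.1%, 78.8 to 97.5) and 37 of 38 in FLASH (97.4%, 86.2 to 99.9). Among cells chosen with the other 7 markers alone, a choice made after the values were seen, the Muc16 share was 29.2% of 24 CONV cells, 90.7% of 43 CONV AsiDNA cells and 97.4% of 38 FLASH cells. Mesothelin (Msln) stood at 1416, 3537 and 3687 adjusted CPM, and uroplakin 3b (Upk3b) at 1218, 3115 and 3549. Wt1, the transcription factor of mesothelium, did not follow them. Its levels were 720, 739 and 575, with 88.0%, 82.2% and 86.8% of cells above 0. Upk1b did not follow them either, at 941, 670 and 989, and Lrrn4 stood at 783, 950 and 1507. Nkain4, at 617, 1262 and 1403, and Gpm6a, at 1013, 2624 and 3629, had the order of Msln. In GRCm38 coordinates of GENCODE M21, Muc16 lies at chr9:18495455-18674530, Msln at chr17:25748613-25754378, Upk3b at chr5:136038496-136046487 and Wt1 at chr2:105126529-105173616.

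**Figure D1:**
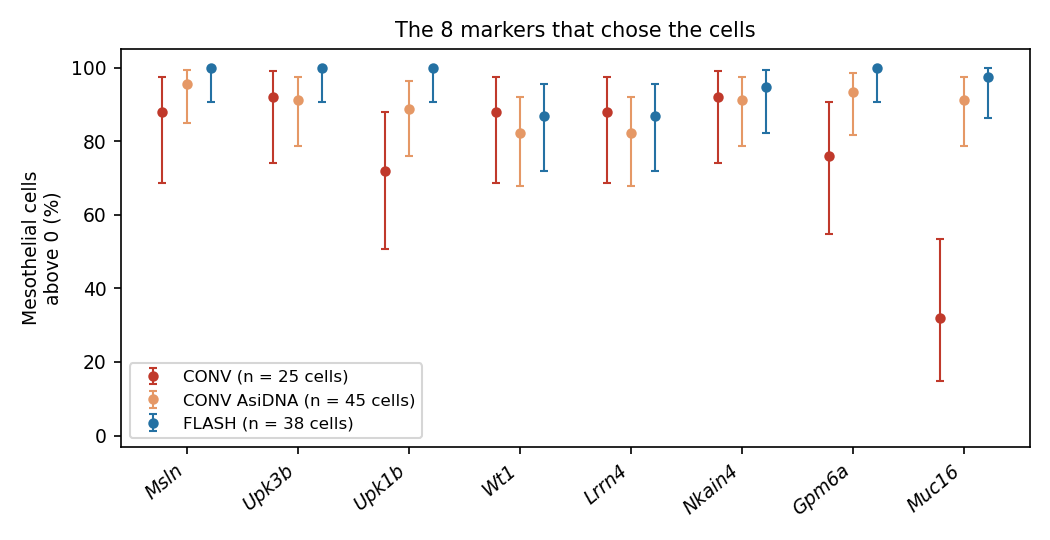
Share of mesothelial cells with a value above 0 (y axis, percent) for the 8 genes used to choose them (x axis), for CONV (red), CONV AsiDNA (orange) and FLASH (blue). Points are shares and bars exact 95% intervals over cells of 1 mouse each. The CONV share of Muc16 was 32.0% against 91.1% and 97.4%. As these values chose the cells, shares and intervals are a description, and no difference between libraries is read from them.

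Mesothelial cells made up a small part of every library. Their share was 0.392% of all CONV cells (0.254 to 0.579), against 0.644% for CONV AsiDNA (0.470 to 0.861) and 0.606% for FLASH (0.429 to 0.831), with overlapping intervals. Of the cells without Ptprc they made up 1.22%, 1.98% and 1.82%. Totals of adjusted counts per cell were similar, but they follow the unnamed step and do not measure sequencing depth. A mesothelial cell had a median total of 4931, 4322 and 4392 adjusted counts and a median of 2095, 2018 and 1989 genes above 0. No mesothelial cell barcode was shared between libraries, and 9 to 17 barcodes were shared by pairs of whole libraries.

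Over all genes, CONV mesothelial cells were set apart from those of both other libraries. Of 4038 genes with a summed value of at least 20 and above 0 in all 3 libraries, 428 were at least 2-fold higher in CONV than in CONV AsiDNA (10.6%) and 803 at least 2-fold lower (19.9%). Against FLASH, 444 were higher in CONV (11%) and 801 lower (19.8%). Between CONV AsiDNA and FLASH the same counts were 204 higher in CONV AsiDNA (5.05%) and 166 lower (4.11%). The 2 comparisons with CONV share its 25 cells, and the smaller number of cells also makes its values less precise. The median log2 ratio over all genes compared was -0.20 for CONV over CONV AsiDNA, -0.19 for CONV over FLASH and -0.04 for CONV AsiDNA over FLASH, and the list medians below are to be read against these, as the list counts are against the shares above. With each library scaled by its median ratio to the others instead, CONV had 598 genes higher and 576 lower than CONV AsiDNA, and 614 higher and 604 lower than FLASH.

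Genes of the mesothelial surface were lower in CONV. Of the 9 compared genes of a list for mucins, hyaluronan, water channels and surface proteoglycans, 5 chose the cells and are left out here. Of the other 4, 3 were at least 2-fold lower and none at least 2-fold higher in CONV than in either other library, with median log2 ratios of -1.89 and -1.98. Over all genes 19.9% and 19.8% were lower. The 3 were Has1, Aqp1 and Gpc3, and the fourth, the proteoglycan gene Sdc4, had log2 ratios of 0.51 and 0.79. Has1, a hyaluronan synthase, stood at 55.4, 707 and 730 adjusted CPM and was above 0 in 20.0%, 77.8% and 71.1% of cells. Aqp1, a water channel, stood at 712, 3379 and 3623 adjusted CPM, and Gpc3, a heparan sulfate proteoglycan, at 2714, 7951 and 8368. Both libraries other than CONV thus lay close to each other for these 3 genes. Slpi, a secreted protease inhibitor, was listed at 0 in all 25 CONV cells and was above 0 in 15 of 45 CONV AsiDNA cells and 22 of 38 FLASH cells. In the other cells of the libraries, Slpi was above 0 in 8.98%, 12.8% and 12.4%. These shares cannot show how its zeros in CONV mesothelial cells arose.

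Among keratins and junction genes, Krt8 and Krt18 were far lower in CONV. Of 17 compared, 8 were at least 2-fold lower and 1 higher than in CONV AsiDNA, and 7 lower and 2 higher than in FLASH, beside 19.9% and 19.8% lower and 10.6% and 11% higher over all genes. The list medians were -0.81 and -0.75, beside -0.20 and -0.19 over all genes. Krt8 and Krt18, which pair to form the filaments of simple epithelia, lie at chr15:101996698-102004482 and chr15:102028180-102032027. Krt8 was above 0 in 1 of 25 CONV cells, 29 of 45 CONV AsiDNA cells and 21 of 38 FLASH cells. Krt18 was above 0 in 2, 32 and 29 cells, and its level was 39.6, 449 and 529 adjusted CPM. The 95% intervals of the CONV shares ended at 20.4% for Krt8 and 26.0% for Krt18, below the intervals of both other libraries. With cells thinned to 1000 adjusted counts each, this held in part. The Krt8 shares were then 0% (0 to 13.7), 35.6% (21.9 to 51.2) and 21.1% (9.55 to 37.3). Those of Krt18 were 4% (0.1 to 20.4), 20% (9.58 to 34.6) and 50% (33.4 to 66.6). The thinned CONV interval thus overlapped that of FLASH for Krt8 and that of CONV AsiDNA for Krt18. The CONV cell with Krt8 was the cell with club cell genes described below, and the second CONV cell with Krt18 had 1 adjusted count of it. With cells of 2 markers taken in, the Krt8 log2 ratio over FLASH was -0.90 in place of -3.64, which ended the call, and that of Krt18 was -1.28 in place of -3.44. Krt19 was less uneven, at 696, 1072 and 903 adjusted CPM. Ezr, which ties membrane to actin, was at 443, 1674 and 1685 adjusted CPM and the tight junction gene F11r at 158, 443 and 437. The gene at least 2-fold higher in CONV than in both others was Cdh11, a mesenchymal cadherin, at 1464 against 327 and 426.

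Of the 25 compared genes of the mesothelial list, 11 were at least 2-fold lower and 2 higher in CONV than in CONV AsiDNA, and 13 lower and 3 higher than in FLASH. Over all genes 19.9% and 19.8% were lower and 10.6% and 11% higher. The list's higher counts are near those shares, and nothing is read from them. The median log2 ratios of the list were -0.67 and -1.02. Igfbp5, a growth factor binding protein, was above 0 in 10 of 25 CONV cells, 44 of 45 CONV AsiDNA cells and all 38 FLASH cells, with levels of 2104, 10026 and 19394 adjusted CPM. The CONV level rested largely on 1 cell with 156 adjusted counts, against a mean of 10.64 and a median of 0 over the 25 cells. Igfbp6 stood at 2856, 6726 and 7201. Rarres2 encodes the chemoattractant chemerin and was above 0 in nearly every cell of all libraries (96.0%, 97.8% and 94.7%), but at 1907, 6045 and 8248 adjusted CPM. Efemp1, an extracellular matrix glycoprotein, had the same order at 475, 1848 and 2887. Aldh1a2, which makes retinoic acid, stood at 403, 945 and 1254. Higher in CONV than in both others were Gata6, a transcription factor, at 1052 against 348 and 374, and Wnt5a, a signalling ligand, at 127 against 52.8 and 57.5. Wnt5a had 36 adjusted counts in all, at most 5 in a CONV cell, and was above 0 in 28.0%, 22.2% and 23.7% of cells. The third gene at least 2-fold higher than in FLASH was Aldh1a1, a retinaldehyde dehydrogenase, at 791, 512 and 374, and with cells of 2 markers taken in its log2 ratio over FLASH was 0.82 in place of 1.06, which ended the call.

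Outside the lists, Il18r1, a subunit of the interleukin 18 receptor, was above 0 in 3 of 25 CONV cells and in 82.2% and 86.8% of the cells of CONV AsiDNA and FLASH. Its log2 ratio was -4.14 over CONV AsiDNA and -4.70 over FLASH. Smpdl3a, a phosphodiesterase, had -3.61 and -4.08. These 2, Krt8, Has1, mt-Nd2 and mt-Cytb were the 6 genes farthest below both other libraries. Fmo2, a flavin monooxygenase, stood at 1147, 4514 and 8748 adjusted CPM. Of the Wnt and growth factor genes, Sfrp1 was at 31.6, 317 and 466 and Fgf18 at 7.91, 84.5 and 132. Wnt4 was the reverse at 403 in CONV against 58.1 and 97.8, although with 4 or more markers required its log2 ratio over FLASH was 0.80 in place of 1.94.

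**Figure D2:**
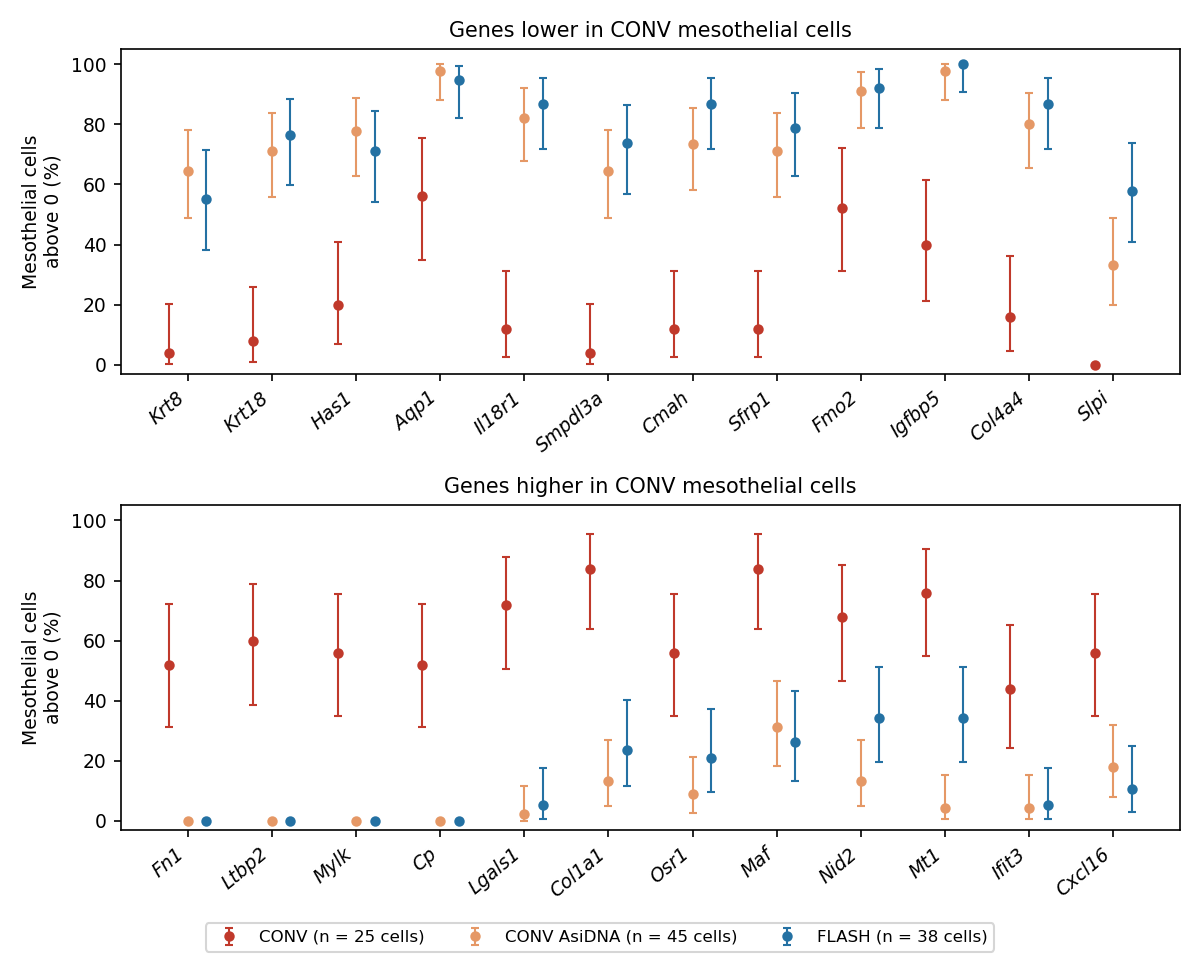
Share of mesothelial cells with a value above 0 (y axis, percent) for 12 genes lower in CONV (top) and 12 genes higher in CONV (bottom), in CONV (red), CONV AsiDNA (orange) and FLASH (blue). The genes were picked after their values were seen. Bars are exact 95% intervals over cells, and none is drawn where a gene is listed at 0. CONV ran from 0% (Slpi) to 56.0% (Aqp1) in the top panel and from 44.0% (Ifit3) to 84.0% (Col1a1 and Maf) in the bottom panel.

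Collagen type I and part of the other matrix and mesenchymal genes were higher in CONV. Of 16 compared genes of a list for mesenchymal change, 6 were at least 2-fold higher and none at least 2-fold lower in CONV than in CONV AsiDNA, and the same numbers held against FLASH. Over all genes 10.6% and 11% were higher and 19.9% and 19.8% lower. Col1a1 was above 0 in 21 of 25 CONV cells (84.0%, 63.9 to 95.5), against 6 of 45 in CONV AsiDNA (13.3%, 5.05 to 26.8) and 9 of 38 in FLASH (23.7%, 11.4 to 40.2). Col1a2 stood at 5237, 370 and 725 adjusted CPM, with a median cell at 24, 1 and 1 adjusted counts. Sparc, a collagen-binding matrix protein, stood at 3054, 945 and 1294. Twist1, a transcription factor of mesenchymal cells, was above 0 in 10, 1 and 2 cells. The whole list did not move together. Vim stood at 910, 702 and 771 adjusted CPM and Col6a1 at 483, 554 and 713, and the collagen type III gene Col3a1 at 1226, 517 and 1346 separated CONV AsiDNA from the other 2 libraries. The median log2 ratio of the 16 genes was 0.87 over CONV AsiDNA and 0.29 over FLASH, and Fn1, Tagln, Lox and S100a4 of the list were left out of it because they were listed at 0 in a library. Of a list of 12 smooth muscle and pericyte genes, 1 met the minimum, the filament gene Des, which was above 0 in 10, 4 and 2 cells. Tagln and Acta2 were each above 0 in 4 CONV cells and listed at 0 elsewhere, and 1 cell held 29 of the 41 adjusted counts of Tagln. The part of these genes in the collagen values was not tested.

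Some genes, with the matrix genes Fn1 and Ltbp2 among them, had values in CONV mesothelial cells alone. Fn1, fibronectin, at chr1:71585520-71653200, was above 0 in 13 of 25 CONV cells (52.0%, 31.3 to 72.2) at 2223 adjusted CPM, and was listed at 0 in all 45 CONV AsiDNA and all 38 FLASH cells. Its level rested on few cells, as 2 of them held 152 of its 281 adjusted counts. With 4 or more markers required, Fn1 was above 0 in 11 of 22 CONV cells at 1324 adjusted CPM. Ltbp2, a microfibril protein, was above 0 in 15 CONV cells, Mylk, the myosin light chain kinase, in 14, and Cp, ceruloplasmin, in 13, and all 3 were listed at 0 in the mesothelial cells of both other libraries. Pdgfra was above 0 in 11 CONV cells and Thy1 in 6, again with none elsewhere. In all, 35 genes with a summed value of at least 20 were above 0 in CONV alone, 5 in CONV AsiDNA alone and 3 in FLASH alone. Such genes passed the minimum only through the library in which they were high. The 35 included 6 club cell genes and the 5 included 4 erythroid or platelet genes, each set past the minimum through 1 cell described below. Without these 2 cells the counts were 21, 2 and 3, and with 4 or more markers required they were 15, 5 and 3. The reverse, listed at 0 in CONV and above 0 in both others, held for 46 genes, among them Cyp2s1, Bst1, Mgll and Bdnf, against 9 for CONV AsiDNA and 16 for FLASH. As the step that made the values is not known, a 0 is given as listed and not as absence. Outside the mesothelial cells Fn1 was above 0 in 14.6%, 10.9% and 9.47% of cells, Mylk in 6.02%, 8.65% and 10.8%, and Cp in 8.89%, 9.27% and 7.98%. These shares in other cells cannot show how the zeros listed in mesothelial cells arose.

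Lgals1, the lectin galectin-1, showed the same contrast with few exceptions. It was above 0 in 18 of 25 CONV cells, with a median of 12 and a maximum of 101 adjusted counts, and in 1 of 45 CONV AsiDNA cells (31 adjusted counts) and 2 of 38 FLASH cells (up to 71). Its share in all other cells was even, at 27.8%, 28.9% and 29.4%. The 6 genes farthest above both other libraries were Maf, Pappa, Ifit3, Mark1, Etl4 and Osr1. Maf, a transcription factor, was above 0 in 84.0%, 31.1% and 26.3% of cells at 1709, 106 and 115 adjusted CPM. Osr1, a transcription factor of mesenchymal progenitors, stood at 783, 52.8 and 69.0, and Pappa, a protease that cleaves Igfbp4, at 309, 15.8 and 5.75.

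Basement membrane genes differed in both directions. Of 15 compared, 5 were at least 2-fold higher and 4 lower in CONV than in CONV AsiDNA, and 6 higher and 5 lower than in FLASH. Over all genes 10.6% and 11% were higher and 19.9% and 19.8% lower, and nothing is read from the list's lower counts. Nidogen 2 (Nid2) stood at 878, 47.5 and 115 adjusted CPM. Perlecan (Hspg2) stood at 411, 63.4 and 80.5, and Col4a2 at 324, 68.6 and 97.8. Col4a4 had the opposite order at 39.6, 364 and 541, with 4 of 25, 36 of 45 and 33 of 38 cells above 0, and its chain partner Col4a3 was listed at 0 in CONV and above 0 in 26.7% and 34.2% of the CONV AsiDNA and FLASH mesothelial cells. Among laminin chains, Lamb1 was higher in CONV (134 against 5.28 and 40.3) and Lamb2 lower (142 against 422 and 380).

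The CONV cells were not uniform. The pairs of genes that follow were chosen after their values were seen and are counts of cells in 1 library. All 13 CONV cells with Fn1 had Lgals1, Col1a1 and Wt1, 12 of them had Upk3b and 10 had Msln, with 3 to 8 markers and a median of 7. The marker counts are fixed in part by the rule. The 3 cells with the most Fn1 (103, 49 and 36 adjusted counts) had no Msln, and they had 3, 5 and 3 markers. Fmo2 was above 0 in 2 of these 13 cells and in 11 of the 12 cells without Fn1. Aqp1 was above 0 in 4 of the 13 and 10 of the 12, Igfbp5 in 3 and 7, and Muc16 in 2 and 6. The cells without Fn1 were not the same as those of the other libraries either, as 8 of these 12 had Col1a1 and 5 had Lgals1. The 13 cells had a median of 5108 adjusted counts and 2108 genes above 0, and the 12 cells 4804.5 and 1995.5.

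**Figure D3:**
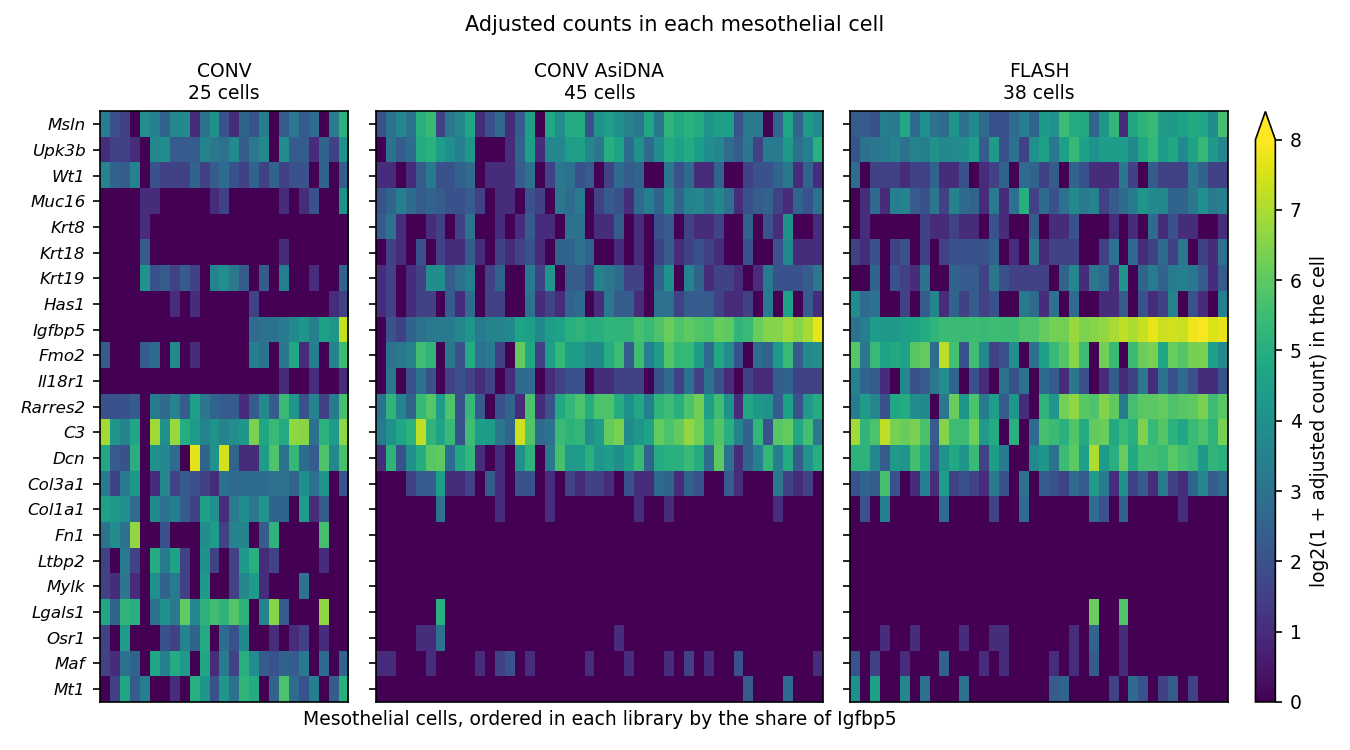
Adjusted counts of 23 genes (rows) in each mesothelial cell (columns) of CONV, CONV AsiDNA and FLASH, coloured by log2(1 + adjusted count), with cells ordered in each library by the share of Igfbp5 in their total. Igfbp5 was above 0 in 10 of 25, 44 of 45 and 38 of 38 cells, and Fn1, Ltbp2 and Mylk were above 0 in CONV cells alone.

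Lung fibroblasts, chosen as cells with 3 or more of 7 fibroblast genes and none of Ptprc, Pecam1 and Epcam above 0, gave 388 cells (74, 129 and 185), in which the same genes were read side by side. The difference between the cell types was not tested, and Col1a2, Col3a1, Dcn and Pdgfra helped to choose the fibroblasts. Col1a1 stood at 1914, 2116 and 1390 adjusted CPM in fibroblasts, and Lgals1 at 1381, 1193 and 933. For both genes the level in CONV fibroblasts was thus within 2-fold of the others. The mesenchymal list had median log2 ratios of -0.07 over CONV AsiDNA and 0.14 over FLASH in fibroblasts. The surface list, with 5 genes compared, was below both other libraries in CONV fibroblasts too, with medians of -0.60 and -0.36, and Has1 stood there at 52.6, 164 and 85.9 adjusted CPM. Gpc3 stood at 1078, 1171 and 982 in fibroblasts. Fmo2, lower in CONV mesothelial cells, stood at 4134, 3011 and 4564 in fibroblasts. Ltbp2 was higher in CONV in both cell types, with 684, 73.5 and 89.9 adjusted CPM in fibroblasts, and Fn1 in fibroblasts stood at 3703, 1465 and 2142. Thbs1 was opposite in the cell types, at 672 and 15.8 in the mesothelial cells of CONV and CONV AsiDNA with FLASH listed at 0, and at 279, 2186 and 2134 in fibroblasts.

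Alveolar type 1 cells, chosen as cells with 3 or more of Ager, Rtkn2, Hopx, Cldn18, Aqp5 and Emp2 and none of the genes excluded above, gave 237 cells (93, 62 and 82). Some lists that were lower in CONV mesothelial cells were lower in these cells as well. The mesothelial list, with 11 genes compared, had medians of -0.54 over CONV AsiDNA and -0.58 over FLASH, and a list of retinoid and growth factor genes had -0.86 and -0.93 with 11 genes compared, beside -0.58 and -0.93 with 18 in mesothelial cells. The surface list had -0.19 and 0.31 with 5 genes. The mesenchymal list had 0.56 and 0.01 with 7 genes, the interferon list 0.11 and -0.05 with 9, and the basement membrane list -0.83 and -0.98 with 14. The median over all genes compared in alveolar type 1 cells was -0.10 and -0.01, and the difference between the cell types was not tested.

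Complement genes included some that were lower in CONV and a membrane regulator that was higher. Of 9 compared, 3 were at least 2-fold lower and 1 higher in CONV than in either other library, which is near the shares over all genes (19.9% and 19.8% lower, 10.6% and 11% higher), so nothing is read from the list as a whole. C3 itself, the central component, stood at 8386, 9424 and 10847 adjusted CPM (log2 ratios of -0.17 and -0.37), and C1s1, a protease of the first component, at 767, 718 and 834. C4b stood at 1717, 4224 and 5176 and C2 at 475, 1114 and 1426. Cd55, which blocks complement on the cell surface, was at 498 in CONV against 58.1 and 57.5, carried by 10 cells with up to 21 adjusted counts. With 4 or more markers required, its log2 ratio over CONV AsiDNA was 1.85 in place of 2.90.

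Many interferon-induced genes were higher in CONV. Of 16 compared, 7 were at least 2-fold higher and 2 lower in CONV than in CONV AsiDNA, and 8 higher and 2 lower than in FLASH, with median log2 ratios of 0.64 and 0.92. Over all genes 10.6% and 11% were higher and 19.9% and 19.8% lower. Isg15, a ubiquitin-like protein, was above 0 in 14 of 25, 11 of 45 and 6 of 38 cells. Ifit3 was above 0 in 11, 2 and 2 cells, and Irf7, a transcription factor of the response, in 10, 5 and 2. The 2 genes lower in CONV were Irf1 (47.5 adjusted CPM against 185 and 121) and Gbp2 (214 against 470 and 529). Among 7 compared genes of MHC class I presentation none was 2-fold higher than in CONV AsiDNA, and 1, H2-Q4, was against FLASH, with median log2 ratios of 0.84 and 0.58. H2-Q7 was above 0 in 14 of 25 CONV cells, in 3 of 45 CONV AsiDNA cells and in none of 38 FLASH cells, but it has near copies whose reads may be divided between genes. In fibroblasts the interferon list had medians of 0.21 over CONV AsiDNA and 0.38 over FLASH.

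Of a list of 19 chemokine and cytokine genes, 3 or more were above 0 in 9 of 25 CONV cells, 7 of 45 CONV AsiDNA cells and 0 of 38 FLASH cells. Cxcl13, which attracts B cells, stood at 4019 adjusted CPM in CONV but was above 0 in 5 of 25 cells with up to 389 adjusted counts, and in 3 cells of CONV AsiDNA and 1 of FLASH with at most 3. When 4 or more markers were required, its log2 ratio over CONV AsiDNA was 3.55 in place of 7.28. Cxcl16 was spread over more cells, above 0 in 14, 8 and 4 cells. Ccl2 was above 0 in 5 CONV cells and none elsewhere. Cxcl10, an interferon-induced chemokine, was opposite to most interferon genes, above 0 in 2 CONV cells, 16 CONV AsiDNA cells and 8 FLASH cells. Csf1, the macrophage growth factor, was lower in CONV at 127 against 396 and 420. The acute-phase gene Saa3 was above 0 in 5 CONV cells and none elsewhere.

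Metallothioneins, which bind metals and respond to stress, separated all 3 libraries. Mt1 was above 0 in 19 of 25 CONV cells, 2 of 45 CONV AsiDNA cells and 13 of 38 FLASH cells, at 2350, 52.8 and 529 adjusted CPM. Mt2 stood at 1250, 148 and 339. In fibroblasts Mt1 did not have this order, at 3072, 4243 and 4641. Over all genes in mesothelial cells, 10.6% and 11% were at least 2-fold higher in CONV and 19.9% and 19.8% lower. The antioxidant list as a whole had 4 of 13 genes at least 2-fold higher and 1 lower in CONV than in CONV AsiDNA, with a median of 0.64, and 3 higher and 1 lower than in FLASH, with a median of 0.67. The gene lower in CONV was Gpx3, above 0 in 1, 19 and 9 cells, and its direction turned when cells with 2 markers were taken in, with log2 ratios of 0.90 and 1.07 in place of -3.84 and -2.40.

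Clock genes of the Nr1d1 phase were lower in CONV. All 7 compared were below CONV AsiDNA and FLASH, 4 of them at least 2-fold in each comparison, with medians of -1.07 and -1.16. Over all 4038 genes, 2404 lay below CONV AsiDNA and 2355 below FLASH, and 19.9% and 19.8% were at least 2-fold lower. With median-ratio scaling Hlf and Per3 no longer lay below CONV AsiDNA, and Hlf also turned with 4 or more markers required (0.14) and with every cell given the same weight (0.12). Clock, an activator with the opposite phase to Nr1d1, was lower in CONV as well, at 31.6, 137 and 115 adjusted CPM. Nr1d1, a repressor of the clock, was above 0 in 6 of 25, 24 of 45 and 20 of 38 cells. In fibroblasts the list had a median of 0.52 over CONV AsiDNA and -0.13 over FLASH, and in alveolar type 1 cells 0.48 and 0.34.

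Targets of p53 and immediate early and heat shock genes had opposite directions in the comparisons of CONV with CONV AsiDNA and FLASH. The p53 list had medians of -0.35 over CONV AsiDNA and 0.36 over FLASH, with 5 and 12 of 16 above 0. Immediate early and heat shock genes had -0.31 and 0.44, with 8 and 18 of 24 above 0. Of all genes compared, 40.5% and 41.7% were above 0. Of 16 p53 targets compared, 1 was at least 2-fold higher and 3 lower in CONV than in CONV AsiDNA, and 4 higher and 1 lower than in FLASH. Over all genes the shares were 10.6% higher and 19.9% lower against CONV AsiDNA and 11% and 19.8% against FLASH, and nothing is read from these counts about the list. Cdkn1a, which encodes the cell cycle inhibitor p21, stood at 688, 1109 and 615 adjusted CPM, with 60%, 73.3% and 57.9% of cells above 0 and overlapping intervals. Bax, a cell death gene, was above 0 in 64.0%, 44.4% and 21.1% of cells. CONV AsiDNA over FLASH had the higher median for the p53 list, 0.66, with 13 of 16 log2 ratios above 0, beside 47.3% of all genes. The same list had a median of 0.52 in fibroblasts and 0.81 in alveolar type 1 cells, again with 13 of 16 above 0 in each. Immediate early and heat shock genes, which also respond to tissue dissociation, moved with it. All 24 compared were higher in CONV AsiDNA than in FLASH with a median of 0.61, 4 of them at least 2-fold, and Fos was above 0 in 73.3% and 55.3% of cells. The direction turned for Hspa1a, Dnajb1 and Cebpd with cells of 2 markers taken in (to -0.06, -0.05 and -0.18), for Hspa1a and Socs3 without the 10% of cells with the highest totals (to -0.16 and -0.01) and for Cebpd with at least 1500 genes per cell (to -0.09). In alveolar type 1 cells 17 of 23 of these genes were higher in CONV AsiDNA than in FLASH (median 0.72), while in fibroblasts 9 were higher and 16 lower (median -0.15). Their part in the p53 values was not tested. Of 14 genes of DNA end joining, only Xrcc5 and Rad50 met the minimum. Xrcc5, which encodes Ku80, was above 0 in 10 of 25 CONV cells, 6 of 45 CONV AsiDNA cells and 1 of 38 FLASH cells. Of these 2 genes, 1 had a log2 ratio above 0 and 1 below 0 in both comparisons with CONV.

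**Figure D4:**
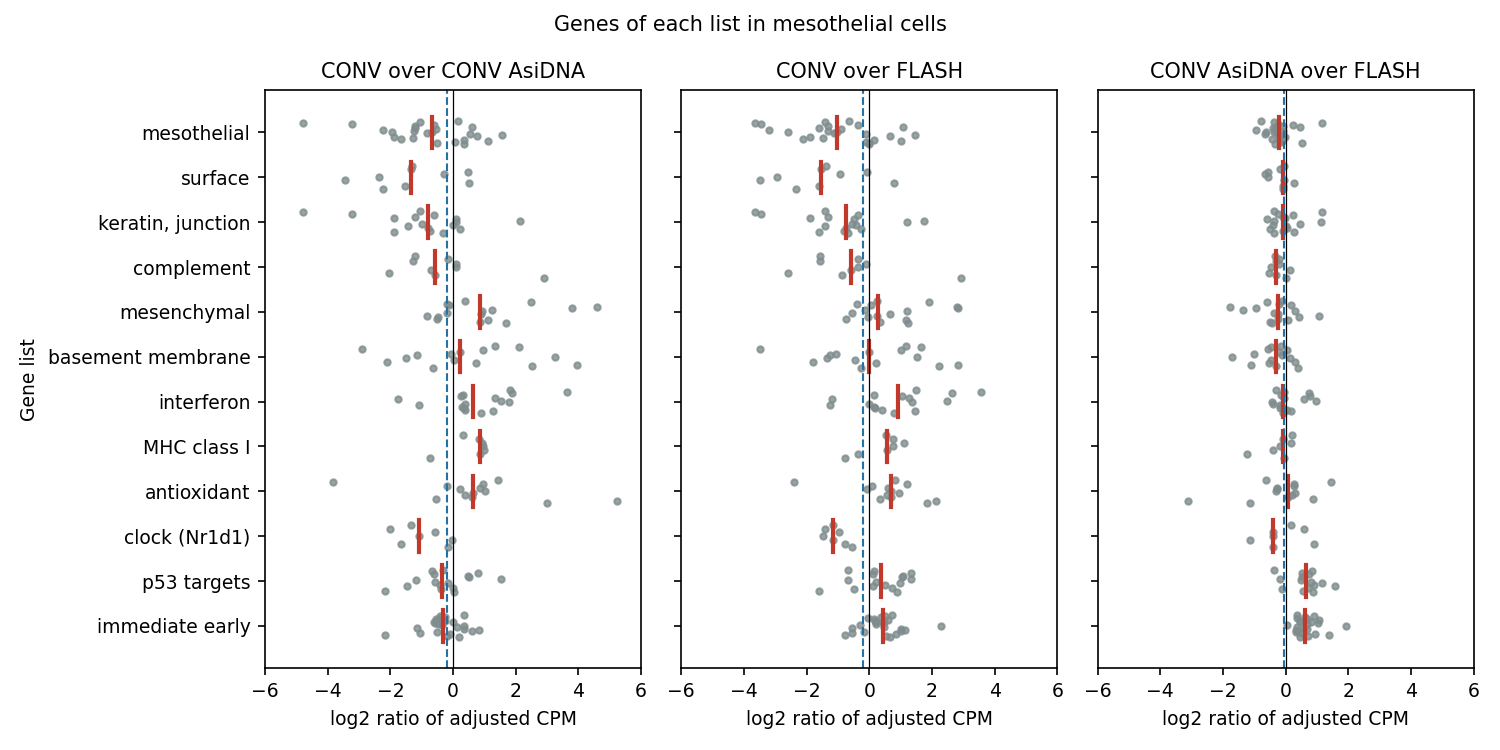
Log2 ratio of adjusted CPM (x axis) for each compared gene (grey points) of 12 gene lists (y axis), for CONV over CONV AsiDNA, CONV over FLASH and CONV AsiDNA over FLASH. Red bars are list medians and the blue dashed line is the median of all 4038 genes compared. The interferon list had medians of 0.64 and 0.92 in the comparisons with CONV and -0.08 between CONV AsiDNA and FLASH. The first 2 panels share the CONV cells, and 5 of the 9 surface genes drawn chose the cells.

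Mesothelial cells of CONV AsiDNA and FLASH lay closer to each other. The genes that separated either one from both other libraries were ranked but not counted. The 6 genes farthest above in CONV AsiDNA were Cxcl10, Fam129b, Triobp, Tsc22d2, Taf1d and Art3, with the smaller log2 ratio between 1.52 and 2.03. Those farthest below were Mt1, Oxr1, Fndc1, Lgals1, Apoe and Naxe. Apoe, the lipid carrier, was above 0 in 8 of 25 CONV cells, 2 of 45 CONV AsiDNA cells and 17 of 38 FLASH cells. In FLASH the genes farthest above included Prlr, Vtcn1, Tsc22d3, Plcb4 and Scaf8. Prlr, the prolactin receptor, was above 0 in 16 of 38 FLASH cells and in 5 cells each of CONV and CONV AsiDNA, and Vtcn1, an inhibitor of T cells, in 16 cells against 2 and 4. Tsc22d3, a glucocorticoid-induced gene, was above 0 in 16.0%, 40.0% and 71.1% of cells, and in fibroblasts it had the same order at 127, 300 and 752 adjusted CPM. Farthest below in FLASH were 2410006H16Rik, Psrc1, Mgmt, Acsl4, Hspa1b and Ces2e. Mgmt, which repairs alkylated guanine, was above 0 in 10 CONV cells, 8 CONV AsiDNA cells and 1 FLASH cell.

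Genes of other cell types and features of the libraries were counted beside these results. Within the lists of club, ciliated, alveolar type 2, endothelial, immune, and erythroid or platelet genes, 3 or more genes of one list were above 0 in 1 CONV cell and 1 CONV AsiDNA cell. The CONV cell had 9 club cell genes with 1511 adjusted counts of Scgb1a1, and the CONV AsiDNA cell 5 erythroid or platelet genes. The fibroblast list, which shares Col1a1, Col1a2, Col3a1 and Pdgfra with the mesenchymal list, had 3 or more of its 16 genes above 0 in 23, 34 and 34 cells. It summed to 14936, 7539 and 10864 adjusted CPM, with 0 to 220, 0 to 118 and 3 to 181 adjusted counts per cell. Its 7 compared genes had a median log2 ratio of CONV over CONV AsiDNA of 1.01, with 5 above 0 and 2 below. Over FLASH it was -0.14, with 2 above 0 and 5 below. Ogn was above 0 in 16, 34 and 34 cells at 348, 1103 and 1639 adjusted CPM, and Npnt in 8, 27 and 18 cells at 134, 327 and 207. Mfap5 was above 0 in 2, 2 and 10 cells and Gsn in 2 CONV cells. Inmt, Mfap4, Col13a1 and Dpt of the list were listed at 0 in all 3 libraries. Tcf21 was above 0 in 1 CONV AsiDNA cell, and Lum and Pi16 were each above 0 in 1 CONV cell. The smooth muscle and pericyte list had 3 or more genes above 0 in 3, 0 and 0 cells and summed to 744, 37.0 and 11.5 adjusted CPM. A cell had at most 36, 1 and 1 adjusted counts of it in CONV, CONV AsiDNA and FLASH. Of this list, Kcnj8 was above 0 in 5, 3 and 0 cells. Pdgfrb was above 0 in 4 CONV cells, Myh11 in 2, and Cnn1 and Cspg4 in 1 each, and in no other library. Notch3, Higd1b, Cox4i2 and Actg2 were listed at 0 throughout. Of the alveolar type 1 genes, 3 or more were above 0 in 4, 23 and 17 cells. Without the cell with club genes and the cell with erythroid or platelet genes, CONV had 473 genes higher and 703 lower than CONV AsiDNA and 479 higher and 708 lower than FLASH. Mitochondrial genes made up 0.134% of the summed adjusted counts of CONV mesothelial cells against 1.53% and 2.48% in the others, and mt-Nd4 was listed at 0 in all 25 CONV cells and above 0 in 62.2% and 86.8% of the others. In all other cells of the libraries mt-Nd4 was above 0 in 37.8%, 18.4% and 45.2%, so that CONV lay above CONV AsiDNA there. Gm42418, a transcript that overlaps ribosomal RNA, was listed at 0 in the FLASH mesothelial cells and reached 10174 and 41993 adjusted CPM in those of CONV and CONV AsiDNA. This held for whole libraries, as Gm42418 was above 0 in 93.1%, 93.9% and 5.19% of all other cells. Fewer than 1500 genes were above 0 in 2 CONV, 10 CONV AsiDNA and 0 FLASH cells. When only cells with at least 1500 genes were kept, CONV had 440 genes higher and 727 lower than CONV AsiDNA. The part of these other lists and library features in the differences between libraries was not tested.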

How the data were processed

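Lungs were dissociated and single cells captured with a 10x Genomics 3' kit. The submitters' processing notes name Cell Ranger 6.0.0 and mm10, and the study's methods name Seurat. The authors deposited, for each of 3 libraries, values for 22954 genes per cell as a natural log, which after exponentiation and subtraction of 1 lay within 1e-10 of whole numbers. The step that made these values from read counts was not named in any source read here, so no count model was applied. Values of the chosen cells were summed per library and gene and scaled to 1000000. Ratios used a prior of 10, genes needed a summed value of at least 20 in mesothelial cells and a value above 0 in all 3 libraries, and a 2-fold difference was the call. Named genes were the rule genes, list members, the 20 with the highest sums, the 6 farthest above and the 6 farthest below per library (above 0 in at least 25% of cells of 1 library) and the 10 most raised over other cells; others were singled out after values were seen. Doublets were not called; cells with genes of other types were counted instead. The cells and gene lists were chosen with earlier results of these data known. GENCODE M21 (GRCm38) gave positions for 22318 symbols. Of 4 further tables, whose gene identifiers match none of the genes in the mouse libraries, 1 held 12 sample columns that matched none of the libraries and 3 held fold changes and p-values. None was used. Python 3.11.15, numpy 2.4.6, scipy 1.17.1 and pandas 2.3.3 were used, and the ratio step was tested on simulated data. Alternatives changed the number of markers, exclusions, prior, minimum, scaling, cell weights and cells kept. Values of 2 genes that the rule would name are not reported here.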

Additional observations from a re-analysis of the deposited data

How the results depend on the processing

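The share of mesothelial cells stayed within the original 95% interval in each library with 2 or 4 markers required, without the exclusions, with at least 500 genes per cell and without the 2 cells carrying genes of other types. As a share of cells without Ptprc it was 1.22%, 1.98% and 1.82% (order CONV, CONV AsiDNA, FLASH, here and below). Without cells carrying 3 or more genes of any other list it was 0.0157%, 0.129% and 0.0319%, as many of the cells had genes of the fibroblast and alveolar type 1 lists above 0, and no gene comparison was made on the 1, 9 and 2 cells left. Counts of genes past 2-fold were within 1.5 times the original in 54 of 66 recalculations. With a prior of 50 adjusted CPM, CONV had 270 genes higher and 329 lower than CONV AsiDNA and 249 higher and 332 lower than FLASH, and CONV AsiDNA had 42 higher and 28 lower than FLASH. With a minimum sum of 50 the counts were 197 and 313, 189 and 341, and 37 and 33, where fewer genes were tested. The chemokine list's median log2 ratio of CONV over FLASH turned from 2.94 to -1.12 at that minimum, which left fewer of its 5 genes. Over CONV AsiDNA it turned from 0.94 to -1.57, and for CONV AsiDNA over FLASH from 0.80 to -0.08. For CONV over FLASH, the DNA end joining list, of 2 genes, turned from 1.20 to -0.25 with 4 markers. Without the 10% of cells with the highest totals it turned to -0.42. Over CONV AsiDNA this list turned from 0.39 to -0.51 and -0.45 in the same settings. Gpx3 turned to 0.90 over CONV AsiDNA and 1.07 over FLASH with 2 markers. The cause was not tested for the last 2. Thinned to 1000 adjusted counts per cell, the Muc16 share was 20.0%, 66.7% and 63.2%, the Col1a1 share 60%, 2.22% and 10.5%, and the Fn1 share 48.0% in CONV. No paired analysis was possible because each condition is 1 mouse. The 25 to 45 cells per library limit all shares, and differences between mice cannot be told apart from differences between treatments.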

Other observations

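Prostaglandin genes differed between the libraries without a common direction. Ptgis, prostacyclin synthase, was even at 941, 908 and 1012 adjusted CPM (CONV, CONV AsiDNA, FLASH), with 96.0%, 91.1% and 100% of cells above 0. Hpgd, which breaks prostaglandins down, stood at 119, 348 and 529 and Ptgs1, a cyclooxygenase, at 214, 407 and 552. Ptgs2, the inducible cyclooxygenase, was above 0 in 2, 9 and 1 cells.

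Signs of division were rare. Mki67 and Top2a were each above 0 in 1 CONV cell and listed at 0 in all CONV AsiDNA and FLASH mesothelial cells. Pcna, a replication factor, was above 0 in 4 of 25, 11 of 45 and 2 of 38 cells. Cdkn2a, a senescence marker, was above 0 in 2 CONV cells and listed at 0 in the others. Of the insulin-like growth factor binding proteins, Igfbp4 was opposite to Igfbp5 and Igfbp6, at 1084, 180 and 380 adjusted CPM, and Igfbp7 stood at 1653, 977 and 966. Dcn, a matrix proteoglycan, stood at 5989, 5126 and 6597, but 2 CONV cells held 382 of its 757 adjusted counts there. Without the 2 cells with the most Dcn in each library it stood at 3184, 4703 and 5787, and the median cell had 12, 19 and 26 adjusted counts.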
